A study of Mus musculus with 20 samples.

Results

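The regions described here are 3054 broad stretches of chromatin that carried Flag-tagged histone H3.3 in mouse embryonic fibroblasts. They were chosen from the 28212 H3.3-Flag regions of the wild-type (WT) list on chromosomes 1 to 19 and X by their length of at least 20 kb (3202 regions). They also had to overlap an H3.3-Flag region of the PML knock-out (KO) list by 1 bp (3144 of these) and to have less than 50% of their length in the WT list of H3K9me3, trimethylated lysine 9 of histone H3 (3054). They were 10.8% of the WT H3.3-Flag regions and held 157 of 286 Mb, or 54.9%, of their length. Those values were used to choose the regions and are given as a description.

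The study compared fibroblasts of wild-type mice and of Pml-null mice on the C57BL/6 background, at passage 10 to 15, proliferating and untreated, in 12 chromatin immunoprecipitation (ChIP) and 8 RNA samples. Cells for H3.3 were nucleofected with a plasmid for H3.3-Flag or H3.3-HA, which carry the tags read by the antibodies, while H3K9me3, H3K27me3 and PML were read in cells that were not said to be transfected and RNA was taken from native cells only. There was 1 ChIP list per target and genotype, and RNA came as 1 table of FPKM (fragments per kilobase of a transcript at an equal library size) per genotype for 3 numbered replicates together and 1 table per genotype for an unnumbered sample. No difference between genotypes therefore has a replicate spread or a test, regions and genes are not replicates, and all differences below compare these lists and tables only. The protocol also mentions siRNAs for some transfections without naming them for a sample, and neither the sex of the cells nor the number of mice is given.

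H3.3 is the replacement variant of histone H3 that is placed into chromatin outside DNA replication. The HIRA complex is known for placing it at promoters and along transcribed genes, and DAXX with ATRX for placing it in heterochromatin, and DAXX and ATRX are partners of PML, the protein that builds PML nuclear bodies. H3K27me3 is the repressive mark of the Polycomb system and of the inactive X chromosome, H3K9me3 is the repressive mark of heterochromatin, and interferon-induced genes are genes that cells switch on in antiviral defence.

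Promoters of 9 genes of the regions are shown first, as examples chosen after their values were seen: 6 of the interferon-induced genes, 2 of genes with high RNA levels, and 1 of an X region with little H3K27me3. Each is the 250 bases before the start site, 5′ to 3′ in the direction of transcription, from RefSeq on GRCm38.p6. The first 6, of Ifit1 (chr19:34640639-34640888, plus strand), Ifit3 (chr19:34583279-34583528, plus), Rsad2 (chr12:26456453-26456702, minus), Cxcl10 (chr5:92348890-92349139, minus), Slfn5 (chr11:82951852-82952101, plus) and B2m (chr2:122147437-122147686, plus), belong to interferon-induced genes. Capitals in them mark the motif of interferon response elements on either strand, which is GAAA, 2 bases of any kind and GAAA, and which reads TTTC, 2 bases and TTTC when on the reverse strand. The other 3, of the elongation factor gene Eef1a1 (chr9:78481725-78481974, minus), the tropomyosin gene Tpm1 (chr9:67049214-67049463, minus) and the X-linked RNA helicase gene Ddx3x (chrX:13280772-13281021, plus), have capitals at the GC box GGGCGG, which reads CCGCCC when on the reverse strand.
Ifit1: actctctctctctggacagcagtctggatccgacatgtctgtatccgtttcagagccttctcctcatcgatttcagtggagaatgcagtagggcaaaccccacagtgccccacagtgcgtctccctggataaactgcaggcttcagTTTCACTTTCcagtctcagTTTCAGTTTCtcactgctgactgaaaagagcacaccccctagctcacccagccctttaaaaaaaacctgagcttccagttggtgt
Ifit3: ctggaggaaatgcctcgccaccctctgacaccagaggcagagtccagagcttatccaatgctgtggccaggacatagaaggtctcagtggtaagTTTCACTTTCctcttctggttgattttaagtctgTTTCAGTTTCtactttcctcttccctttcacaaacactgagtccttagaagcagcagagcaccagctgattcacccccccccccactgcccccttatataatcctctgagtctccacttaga
Rsad2: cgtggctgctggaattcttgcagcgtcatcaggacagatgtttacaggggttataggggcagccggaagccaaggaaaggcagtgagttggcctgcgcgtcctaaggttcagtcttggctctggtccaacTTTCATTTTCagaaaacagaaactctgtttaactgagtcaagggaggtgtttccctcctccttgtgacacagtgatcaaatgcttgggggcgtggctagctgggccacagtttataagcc
Cxcl10: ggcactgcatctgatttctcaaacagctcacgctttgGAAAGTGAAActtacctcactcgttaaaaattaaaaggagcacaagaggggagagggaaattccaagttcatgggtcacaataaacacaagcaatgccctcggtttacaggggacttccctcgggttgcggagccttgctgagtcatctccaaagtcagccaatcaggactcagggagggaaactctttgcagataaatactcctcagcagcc
Slfn5: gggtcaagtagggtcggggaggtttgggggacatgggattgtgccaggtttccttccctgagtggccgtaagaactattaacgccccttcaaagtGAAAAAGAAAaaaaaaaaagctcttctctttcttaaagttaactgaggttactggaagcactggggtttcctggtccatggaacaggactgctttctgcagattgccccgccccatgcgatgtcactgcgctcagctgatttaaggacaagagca
B2m: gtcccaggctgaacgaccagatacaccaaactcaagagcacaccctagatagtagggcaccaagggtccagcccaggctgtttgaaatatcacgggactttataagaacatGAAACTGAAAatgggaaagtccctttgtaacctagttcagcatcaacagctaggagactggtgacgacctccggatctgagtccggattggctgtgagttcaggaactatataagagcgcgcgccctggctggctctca
Eef1a1: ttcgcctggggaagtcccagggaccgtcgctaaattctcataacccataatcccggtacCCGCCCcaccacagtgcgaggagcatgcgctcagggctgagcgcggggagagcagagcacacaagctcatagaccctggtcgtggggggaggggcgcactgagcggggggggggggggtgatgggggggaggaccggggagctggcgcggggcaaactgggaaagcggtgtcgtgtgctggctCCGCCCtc
Tpm1: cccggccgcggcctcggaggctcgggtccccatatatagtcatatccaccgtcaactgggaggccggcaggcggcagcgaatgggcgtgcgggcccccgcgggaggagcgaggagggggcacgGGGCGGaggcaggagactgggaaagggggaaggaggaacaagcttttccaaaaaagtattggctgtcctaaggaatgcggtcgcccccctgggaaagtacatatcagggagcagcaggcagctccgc
Ddx3x: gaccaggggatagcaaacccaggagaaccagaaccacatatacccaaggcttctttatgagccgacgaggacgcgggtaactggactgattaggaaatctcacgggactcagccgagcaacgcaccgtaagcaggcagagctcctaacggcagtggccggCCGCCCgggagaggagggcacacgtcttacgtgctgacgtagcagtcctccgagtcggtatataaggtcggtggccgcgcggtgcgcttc

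Of the 3101 protein-coding genes assigned to the regions, 2483 had a promoter entry, and 3689 starts of protein-coding genes lay inside the regions. The interferon motif, searched on both strands and with overlapping matches allowed, was in 140 of these 3689 promoters (3.8%), against 2.98% of all 21045. The share depended on where in the set the promoter lay. When the regions were split by signal into 5 classes of like size it was 7.43% in the highest, against 2.00 to 2.96% in the other 4, and in the 100 regions of highest signal it was in 27 of 159 promoters (17.0%). In the autosomal regions with at least 50% of their length in WT H3K27me3 it was in 34 of 122 promoters (27.9%), against 3.01% in the other autosomal regions. GGGCGG was in 60.4% of the promoters in the regions, against 39.4% outside them and 43.1% of all, and in 30.3% of the promoters in the autosomal regions with at least 50% H3K27me3. The promoters in the regions had a median of 17 CpG in 250 bases, those outside 8, and those in the H3K27me3-rich autosomal regions 5. The letters TATAAA of the TATA box were in 7.21% of the promoters in the regions, against 11.7% of all. These matches are letters in a window and were not tested as sites. The interferon motif was searched for with interferon-induced genes in these regions already known, so its shares are a description. The 159 and 122 promoters lay in 70 and 56 regions, and promoters that share a region are not independent. Among the 27 promoters with the motif were several of the Ifit region, and Ifit1bl1 and Mndal were each counted more than once.

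The regions were 20 to 521 kb long with a median of 37 kb, and 3005 lay on autosomes and 49 on X. Their signal, a value per region made by the authors whose unit is not given, ran from 12.1 to 162 with a median of 27. Its median was 39 in the 16177 shorter regions that met the other parts of the rule. The longest region (521 kb, chr10:12374001-12895000) lay on Utrn, the gene of the muscle and membrane protein utrophin. The next were 442 kb on Glis3, a zinc-finger transcription factor, and 335 kb on the formin gene Fmnl2. A 302 kb region (chr15:62038001-62340000) held no protein-coding gene but Pvt1, a long non-coding RNA. Regions of 290 to 300 kb lay on Slco3a1, on the guanine nucleotide exchange factor gene Trio, on Timp2 with Usp36 and Cyth1, on the heparan sulfate synthesis gene Ext1 and on the growth hormone receptor gene Ghr.

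The highest signals were on other genes. The first was 162 on the 124 kb region chr19:34543001-34667000 with the antiviral genes Ifit2, Ifit3, Ifit3b and Ifit1. Others among the highest 10 were 143 on 143 kb at Rnf213, a large ubiquitin ligase that interferon induces, 135 at Tmprss2 with the Mx2 transcript, and 133 at Iigp1, an interferon-inducible GTPase. The region of the non-coding RNAs Malat1 and Neat1 had 127, that of the guanylate-binding protein gene Gbp2 124, that of the thrombospondin gene Thbs1 123, and that of the antiviral gene Rsad2 with Cmpk2 119. Of the 10 regions of highest signal, 4 held a gene of a list of interferon-induced genes that is described below. One region with a signal of 112, chr6:114488001-114638000 with a length of 150 kb, held no annotated gene. It had at least 94.7% of its length in both H3.3-HA lists and 100% in KO H3K27me3, KO H3K9me3 and both H3 lists, and 4% in WT H3K27me3.

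At the edges of the rule, the 142 regions of 20 kb had a median signal of 25.9 and the 199 otherwise alike regions of 19 kb 28.1. There were 46 regions with 40 to 50% and 42 with 50 to 60% of their length in WT H3K9me3. In KO, H3.3-Flag covered 88.6% of the regions' length. At least 50% was covered in 2813 regions (92.1%, against 68% of all WT H3.3-Flag regions), and 1244 (40.7%) were covered in full. As the rule asked for an overlap in KO, nothing is read from these shares. In 23 regions under 10% of the length was covered in KO, with the lowest share, 1.75%, at the heparan sulfate gene Ndst3 and 2.27% at Laptm4b. The 58 broad regions with no KO overlap were shorter (median 25 kb) and had a median signal of 16.8.

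Some facts of the lists and tables stand beside all that follows. Pml itself lay wholly in a region, and in the numbered tables its FPKM was 15.0 (WT) and 10.2 (KO), and in the unnumbered ones 7.62 and 4.22. The labels do not say which part of Pml is missing, so this does not check the knock-out, while the PML lists touched 280 of all WT H3.3-Flag regions in WT and 4 in KO. Levels of the non-coding RNA Xist were 19.5 (WT) and 0.0517 (KO) in the numbered tables, against 5.89 and 8.25 in the unnumbered ones, and the Y-linked Ddx3y was 0.0384 and 7.67 against 21.7 and 11.4. In the unnumbered WT table all 12 macrophage markers looked at were at 1 FPKM or more, with a median of 9.32 FPKM. In the numbered WT table none of them was (median 0). Of 14 fibroblast markers 13 were at 1 FPKM or more in the numbered WT table (median of the 14, 137 FPKM). All 14 were in the unnumbered one (median 206). The exception was the surface marker Thy1, with 0.141 FPKM in the numbered against 210 in the unnumbered WT table. The part of these differences in any result below was not tested. On chromosome 5 the KO lists of H3K9me3 and H3 covered 60.7 and 71.4% of the regions' length, against 0.691 to 15.3% and 7.43 to 39.1% on the other autosomes.

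The regions were regions of genes. Protein-coding genes took up 80.2% of their length, against 68.4% of the length of all WT H3.3-Flag regions. A total of 4655 protein-coding genes were touched, 3101 had at least 50% of their body inside a region (14.3% of all 21631) and 2334 lay wholly inside. Of the 2483 covered genes with a promoter entry, 2330 (93.8%) also started inside a region. A single gene was touched by 1556 regions, 2 to 5 genes by 1266 and 6 or more by 45. The most, 25, were in a 62 kb region on the Pcdhg cluster of protocadherin cell-adhesion genes. A total of 187 regions (6.12%) touched no protein-coding gene, and 110 of them touched a long non-coding RNA or a transcribed pseudogene, such as Lncpint (181 kb) or Morrbid (149 kb).

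Most of these genes were expressed. Of 2938 measured genes with at least 50% of their body covered, 2614 had at least 1 FPKM in the numbered WT table (89.0%, 95% Wilson interval 87.8 to 90.1%, against 51.2% of all measured genes). Of the same genes 2691 were at this level in the unnumbered WT table (91.6%, 90.5 to 92.5%, against 55.9%). Their median was 17.3 FPKM in the numbered and 19.5 in the unnumbered table, where all genes had 1.28 and 2.41. Genes at least 50% covered by other WT H3.3-Flag regions were at 1 FPKM or more in 82.4 and 85.6% of cases. Their medians were 16.6 and 15.0 FPKM, so most of the gap to all genes was found there too. Genes with no H3.3-Flag base were at 1 FPKM or more in 18.8 and 23.2%. The level was higher where more of the gene lay inside the regions. The median in the numbered table was 0.0982 with none, 6.53 with under 50%, 12.7 with 50 to under 100% and 19.8 with all of it covered. The intervals cover counting error only.

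**Figure D1:**
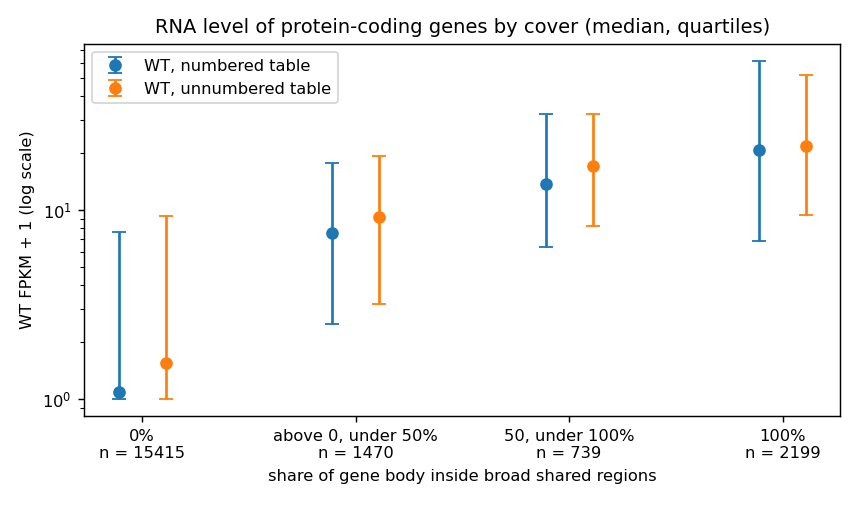
WT RNA level (FPKM + 1, log axis) of protein-coding genes by the share of the gene body inside the broad shared regions; points are medians and bars the quartiles, in blue for the numbered and orange for the unnumbered WT table, and n is the number of genes. The medians step up from 0.0982 and 0.560 FPKM with no base covered to 19.8 and 20.9 FPKM with the whole gene covered. Genes covered only by other WT H3.3-Flag regions are in the class with no base covered.

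Among the highest levels in the regions were those of ribosomal genes in the numbered WT table and of matrix genes in the unnumbered one. In the numbered WT table the first was Rplp2, a protein of the ribosomal stalk, with 21961 FPKM, and in the unnumbered one it had 1284. Rpl36 and Rpl38, of the large ribosomal subunit, had 15146 and 13312 FPKM in the numbered table and 1019 and 2347 in the unnumbered one. The galectin gene Lgals1 had 13199 and 2098, and the myosin light chain gene Myl6 had 8802 and 1280. In the unnumbered WT table Eef1a1 was first with 5932 FPKM (3743 in the numbered one). It was followed by the collagen gene Col1a2 with 3109 (1103), Thbs1 with 2700 (2520) and Col1a1 with 2527 (3354). Apart from Rpl38, covered to 95.9%, these genes lay wholly in regions.

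Genes of the fibroblast programme were often, though not always, in the regions. Of 34 extracellular matrix genes looked at, 23 had at least 50% of their body covered, among them Fn1 (fibronectin, 894 FPKM in the numbered and 665 in the unnumbered WT table), Lox (754 and 1013) and Col5a1 (239 and 476). Of 26 actin cytoskeleton genes 17 were covered, with Tpm1 (1608 and 803), the non-muscle myosin gene Myh9 (408 and 253) and the actinin gene Actn1 (363 and 195) among them. The corresponding counts were 12 of 20 for adhesion and surface genes, such as the integrin gene Itgb1 (508 and 495), 14 of 20 for housekeeping genes and 17 of 30 for transcription regulators of fibroblasts, such as Prrx1 (42.3 and 98.8) and Yap1 (47.2 and 47.3). Of 14 general fibroblast markers, some of which are also in these lists, 7 were covered (50%). These shares of 50 to 70.0%, with the highest for housekeeping genes, stand beside 14.3% of all genes, expressed or not. Most genes of these lists were expressed. The regions held 2614 of the 10159 genes at 1 FPKM or more in the numbered WT table, and 1890 of the 5602 at 10 FPKM or more. Whether the listed genes were in the regions more often than other genes of like RNA level was not tested. High RNA alone did not place a gene in the regions: Actb (3799 and 3914), Vim (2624 and 1528) and Gapdh (1288 and 601) were outside. WT H3.3-Flag regions of any kind covered at least 50% of 22 of the actin genes, 14 of the adhesion genes, all 20 housekeeping genes and 25 of the regulators, and of no further matrix gene than the 23. Of 30 Hox genes, the transcription factors of body position, 6 were covered. Of 11 genes for H3.3 and its chaperones 4 were covered, namely H3f3b (an H3.3 gene, 288 and 271 FPKM), Daxx (13.4 and 10.5), Asf1a (8.52 and 8.25) and Dek (77.1 and 40.6), while Hira and Atrx had no covered base. No endothelial, epithelial, neural or muscle and fat marker, 8 of each, was covered to 50%, and 1 of 12 macrophage markers was (Cd68, 0.341 and 7.06 FPKM). The endothelial, epithelial and neural markers had little RNA, with medians of 0.0105, 0 and 0 FPKM in the numbered WT table. Their medians in the unnumbered one were 0.106, 0.0335 and 0.0909 FPKM, and those of the muscle and fat markers were 0 in both.

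A second tagged H3.3, H3.3-HA, was on part of the same stretches. In WT the H3.3-HA list touched 2134 regions (69.9%, against 22.7% of all WT H3.3-Flag regions, which are mostly shorter). It covered at least 50% of 756 (24.8%, Wilson interval 23.3 to 26.3%, against 13.8%) and 26.4% of the length. Among the 58 broad regions with no KO overlap WT H3.3-HA covered at least 50% of 4 (6.90%), among the 16177 shorter shared regions of 16.6%, and among the 90 broad shared regions rich in H3K9me3 of 22.2%. In KO the H3.3-HA list touched fewer regions, 1335 (43.7%, against 20.8%), and yet covered at least 50% of more, 1164 (38.1%, 36.4 to 39.9%, against 19.9%). The KO list was far more spread than the WT list. It covered 26.3% of the bases 47.5 kb outside the autosomal regions and 39.0% at their centre, where the WT list covered 7.39% and 29.1%. At a signal of at least 3, KO H3.3-HA covered at least 50% of 254 regions (8.32%, against 2.56%) and WT H3.3-HA of 748 (24.5%, against 13.6%), so the order of the genotypes turned with the signal minimum.

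**Figure D2:**
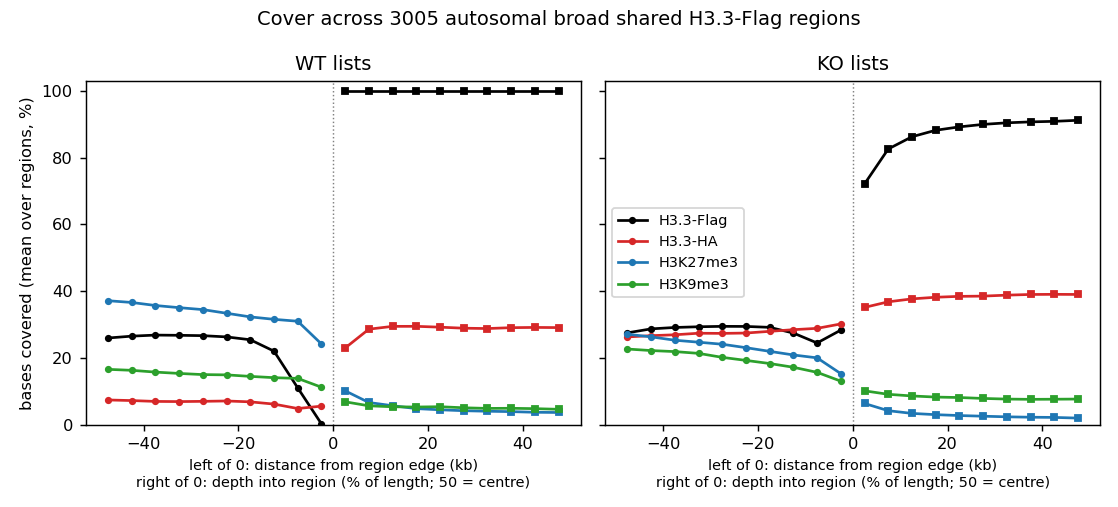
Mean share of bases covered (%) by each list around and inside the 3005 autosomal broad shared regions, with WT lists on the left and KO lists on the right; left of 0 is the distance from the region edge in kb and right of 0 the depth into the region as % of its length. WT H3.3-HA rises from 7.39% at 47.5 kb outside to 29.1% at the centre, and WT H3K27me3 goes from 37.1% to 3.63%.

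H3.3-HA cover went with the H3.3-Flag signal. From the lowest to the highest of the 5 classes of signal the WT H3.3-HA list covered 8.83, 16.1, 23.0, 33.2 and 45.4% of the regions' length, and the KO list 22% in the lowest and 50.1% in the highest. Across the 3005 autosomal regions the Spearman correlation of signal and WT H3.3-HA cover was 0.48, and that of WT and KO H3.3-HA cover 0.42. Across the 2786 autosomal regions with a measured gene the correlation of WT H3.3-HA cover with the RNA level of the region's highest gene was 0.35 in the numbered and 0.27 in the unnumbered WT table. These are descriptions over regions that share the libraries. Of the autosomal regions, 549 had H3.3-HA on at least 50% of their length in both lists, 206 in WT alone, 610 in KO alone and 1640 in neither. WT H3.3-HA covered 100% of the regions of the phosphatase gene Ptpn14 with Smyd2 (173 kb), of Col5a1 (162 kb), of Tpm1 (63 kb), of the mechanosensitive channel gene Piezo1 (84 kb) and of the actinin gene Actn4 (70 kb). No WT H3.3-HA lay on long regions such as those of the helicase gene Ascc3 (282 kb, signal 39.9), of Zfpm2 (257 kb), of the scaffold gene Dlg1 (217 kb), of the Notch coactivator gene Maml2 (201 kb) and of the transcription factor gene Zeb2 (164 kb).

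Along genes, WT H3.3-HA cover was denser at the ends than in the middle. Over 1615 autosomal genes of the regions with a length of at least 10 kb, it covered 46.0% of the bases in the last 1 kb before the start, 42.2% in the first 10% of the body, 26.7% in the middle and 36.4% between 1 and 2 kb past the end. In the 366 genes at 50 FPKM or more in the numbered WT table the body was covered more evenly, with 55.1% in the first 10%, 45.8% in the middle and 57.0% past the end. The 121 genes under 1 FPKM had 27.3% in the first 10% and 19.1% in the middle. Of all measured autosomal genes of the regions, WT H3.3-HA covered at least 50% of the body in 37.4% under 1 FPKM, 25% at 1 to 10, 29.9% at 10 to 50 and 53.6% at 50 or more in the numbered table. The unnumbered table gave 32.4, 30.1, 30.3 and 52.9%. The share was therefore highest in the highest class and lowest in the middle, with genes under 1 FPKM between them.

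**Figure D3:**
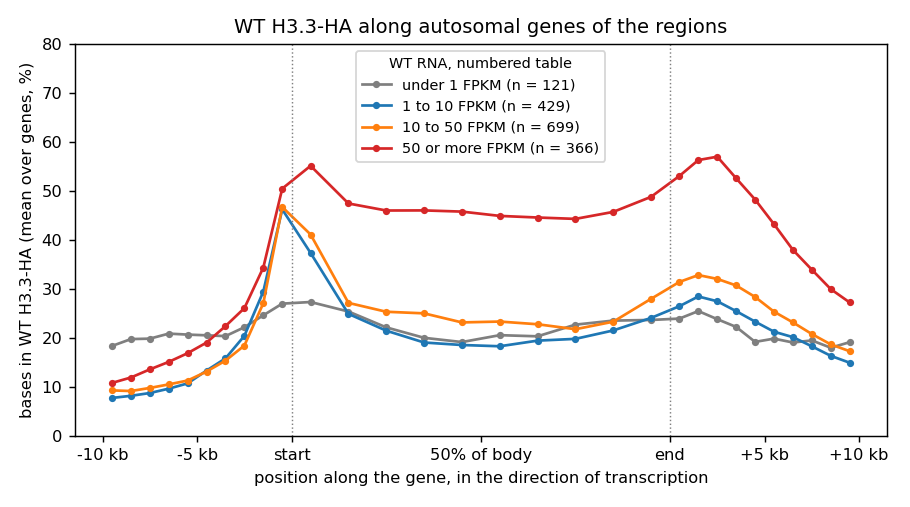
WT H3.3-HA along 1615 autosomal genes of the regions with a length of at least 10 kb, as the mean share of bases covered (%), from 10 kb before the start to 10 kb past the end, in 4 classes of RNA level in the numbered WT table. The class at 50 FPKM or more reaches 57.0% just past the gene end and stays near 45.8% in the body, and the class under 1 FPKM is at 19.1% in the middle.

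H3K27me3 was scarce on the autosomal regions and lay outside their edges. The WT list touched 777 of the 3054 regions (25.4%, against 24.6% of all WT H3.3-Flag regions, which are mostly shorter). It covered at least 50% of only 142 (4.65%, against 19.3%). The KO list touched 513 (16.8%, against 18.8%) and covered at least 50% of 97 (3.18%, against 15.5%). On the autosomes alone the counts at 50% or more were 102 in WT (3.39%) and 51 in KO (1.70%), with 35 regions in both, 67 in WT alone and 16 in KO alone. The WT list covered 37.1% of the bases 47.5 kb outside the autosomal regions, 24.2% at 2.5 kb outside, 10.1% just inside and 3.63% at the centre. In KO these values were 27.1, 15.3, 6.34 and 1.96%. Gene bodies gave like shares. Of the 3063 autosomal genes of the regions 167 (5.45%) had at least 50% of their body in WT H3K27me3, against 31.3% of all autosomal protein-coding genes (33.9% with X), and 104 (3.40%) in KO, against 29.2% (32.4% with X). Among the measured ones the WT share was 33.0% under 1 FPKM, 4.48% at 1 to 10, 0.622% at 10 to 50 and 0.135% at 50 or more in the numbered table.

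The few H3K27me3-rich autosomal regions held genes with less RNA than the other regions. The 81 genes at least 50% covered by the 67 regions rich in WT alone had a median of 0.455 FPKM in the numbered WT table, the 46 of the 35 regions rich in both lists 0.0687, and the 2931 of the 2887 regions rich in neither 18.6. In the unnumbered WT table these medians were 1.67, 0.329 and 20.3 FPKM. The share of measured genes at 1 FPKM or more was 40.3% (numbered) and 58.3% (unnumbered) in the regions rich in WT alone. Regions wholly in WT H3K27me3 included those of Rsad2 with Cmpk2 (69 kb, 100% in KO too), of the antiviral oligoadenylate synthetase genes Oas1a and Oas1g (44 kb, 100% in KO too) and of the cytokine signalling inhibitor gene Socs2 (34 kb, 76.5% in KO). Others were those of Acod1, which makes itaconate in inflammation (32 kb, 100% in KO), of the inducible nitric oxide synthase gene Nos2 with Lgals9 (31 kb, 12.9% in KO) and of the polyamine oxidase gene Smox (39 kb, 46.2% in KO). In KO the mark covered 100% of the regions of Slfn5, Slfn9, Slfn8 and Slfn2 (141 kb, 87.9% in WT), of Cxcl10 with Cxcl9 (66 kb, 69.7% in WT), of Oas2 with Oas3 (61 kb, 88.5% in WT), of Arhgap22 (51 kb, 0% in WT) and of the cyclin gene Ccnd2 (37 kb, 21.6% in WT). The regions of Oas1a, Oas2 and Cxcl10 lay on chromosome 5. The KO list of total H3 covered 100% of each of them, and that of KO H3K9me3 100, 100 and 37.9%. KO H3 also covered 100% of the regions of Socs2, Nos2 and Ccnd2, and 0% of those of Rsad2, Acod1, Smox, Slfn5 and Arhgap22.

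H3K27me3 was on most of the X regions. Of these 49, 40 had at least 50% of their length in WT H3K27me3 (81.6%, Wilson interval 68.6 to 90.0%) and 46 in KO (93.9%, 83.5 to 97.9%). On no autosome did the 2 lists cover more than 8.11 and 5.67% of the regions' length, and on X they covered 85.5 and 95.3%. The mark was spread over the chromosome as a whole: 89.0% of 966 X-linked protein-coding genes had at least 50% of their body in the WT list and 99.2% in the KO list, and the bases 47.5 kb outside the X regions were covered to 94.9 and 99%. RNA of the 38 genes of these regions was also found, with a median of 21.0 FPKM in the numbered and 25.4 in the unnumbered WT table. The lists do not tell copies of X or single cells apart. Mark and RNA therefore need not come from the same copy or cell, which was not tested. Msn, the gene of the membrane linker moesin, lay in a 90 kb region wholly in H3K27me3 in both lists. In the numbered tables its FPKM was 276 (WT) and 437 (KO), and in the unnumbered ones 87.7 and 163. Regions with 100% in both lists also lay on the adaptor gene Sh3kbp1 (156 kb), on Cask (3 regions of 95 to 100 kb), on the deubiquitinase gene Usp9x (98 kb), on Acsl4 (85 kb), on the ubiquitin ligase gene Huwe1 (74 kb) and on Il13ra1 (73 kb).

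The X regions with the least H3K27me3 in the KO list were those of Eif2s3x, Kdm5c and Ddx3x, a translation factor, a histone demethylase and the helicase whose promoter is shown above. They were picked here after their values were seen. All 3 are known to escape X inactivation. The Eif2s3x region (chrX:94186001-94214000) had 17.9% of its length in the WT and 0% in the KO list, the Kdm5c region (chrX:152231001-152266000) 2.86% in both and the Ddx3x region (chrX:13279001-13300000) 19% in both. Next in the KO list were the regions of Fmr1 (28.3 and 62.3%), of the non-coding RNA Xist (69.2% in both) and of Mid1, at the end of X, which had 0% in the WT list, less than the regions of all 3 genes, and 100% in KO. In the numbered tables Eif2s3x had 97.4 (WT) and 88.4 FPKM (KO), and in the unnumbered ones 74.4 and 106. In the same order Ddx3x had 84.7 and 99.8, then 58.5 and 80.1, and Kdm5c 14.5 and 14.2, then 23.2 and 27.6. For these 3 genes the KO minus WT difference on the log2(FPKM + 1) scale lay between -0.14 (Eif2s3x, numbered) and 0.50 (Eif2s3x, unnumbered). The sex of the cells is not given, and Xist and Ddx3y differed strongly between WT and KO in the numbered tables, as given above. For these X-linked genes genotype cannot be told apart from that difference, whose part was not tested. Of 2 further known escape genes, Kdm6a had no base in the regions and Mid1 17.3% of its body. H3.3-HA was rare on X, with 1 region covered to at least 50% in WT and 5 in KO.

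**Figure D4:**
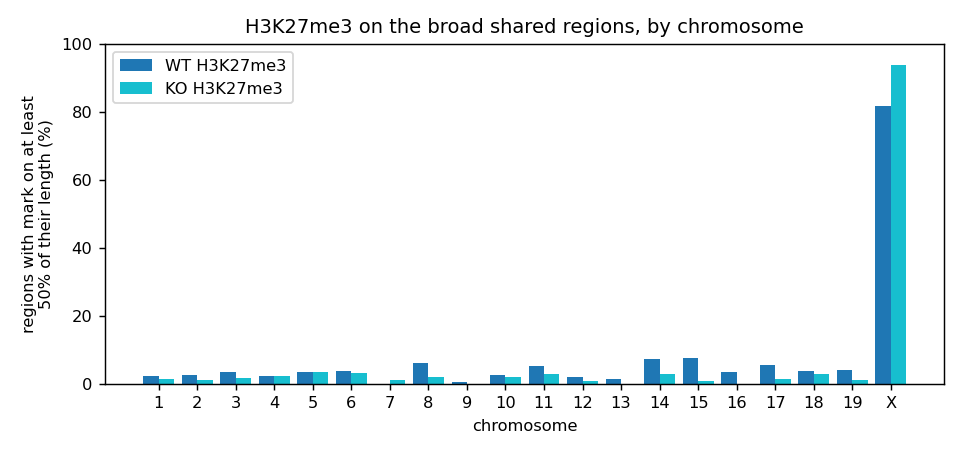
Share of the broad shared regions (%) with H3K27me3 on at least 50% of their length, by chromosome, in the WT (dark blue) and KO (light blue) list. X stands at 81.6% in WT and 93.9% in KO of its 49 regions, and over the 19 autosomes together the shares are 3.39 and 1.70%.

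A list of interferon-induced genes is described next. Its 52 genes were put together with results on these data known, so their place in the regions, their signal, their marks and their RNA values are a description and support nothing beyond these lists and tables. Of 49 annotated members 47 lay in the regions, each with its whole body, where 14.3% of all genes had at least 50% inside, and the other 2 (Dhx58 and Sp100) had no covered base. The 47 genes were in 35 regions with a median signal of 67.9 (range 36.1 to 162), against a median of 27 over all 3054, and 18 of the 100 regions of highest signal were among these 35. WT H3K27me3 covered at least 50% of 23 of the 47 genes (48.9%, against 33.9% of all protein-coding genes and 6.39% of the genes of the regions) and KO H3K27me3 16 (34.0%, against 32.4% and 4.45%). WT H3.3-HA covered at least 50% of 28 (59.6%, against 8.69% and 35.7%) and KO H3.3-HA 11 (23.4%, against 27.1% and 46.2%).

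Their RNA was low in WT for genes of these regions. Over the 45 measured ones the median WT level was 0.299 FPKM in the numbered and 3.02 in the unnumbered table, and 28 and 13 were under 1 FPKM. Ifit1, whose protein binds viral RNA, had 0.492 (WT) and 17.6 FPKM (KO) in the numbered tables, then 4.23 and 0.632 in the unnumbered ones. Its body lay wholly in WT H3K27me3, not at all in KO H3K27me3, and to 98.8% in WT H3.3-HA. Rsad2, which makes an antiviral nucleotide, had 0.00260 and 1.81, then 0.285 and 0.0897 FPKM, with 100% of its body in H3K27me3 in both lists. Slfn5 was under 1 FPKM in all 4 tables (0.355 and 0.514, then 0.638 and 0.746), with 100% in H3K27me3 in both lists and no H3.3-HA. B2m, the light chain of MHC class I, was high throughout, with 321 and 739, then 504 and 528 FPKM, with no H3K27me3 and 100% in both H3.3-HA lists. The H3.3 lists came from nucleofected cells and the RNA from native ones, and H3.3 cover and RNA level of these genes were thus not read in the same cells.

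In all, 218 genes with at least 50% of their body in the regions were under 1 FPKM in both WT tables, 3 of them on X, so at this limit the regions are not regions of expressed genes alone. WT H3K27me3 covered at least 50% of 88 of the 218, beside 33.9% of all protein-coding genes and 6.39% of the genes of the regions. It touched 114, for which no share over all genes is given. Of the 218, 12 were on the interferon list, which held 47 of the 3101 genes of the regions, and 14 were listed at 0 in all 4 tables. Those with the whole body in regions included Ddx60, a helicase of antiviral defence (0 and 0.0621 FPKM in the 2 WT tables), the MHC class I regulator Nlrc5 (0.0106 and 0.245), the growth factor gene Gdnf (0.387 and 0.300) and Cd274, the gene of the checkpoint ligand PD-L1 (0.143 and 0.256). Ddx60, Nlrc5 and Gdnf had 88.1, 99.7 and 100% of their body in WT H3K27me3, and Cd274 had none.

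WT H3K9me3, on which the rule set its limit, touched 1064 regions (34.8%, against 15.4% of all WT H3.3-Flag regions, which are mostly shorter). The share touched rose with length, from 19.8% of regions of 20 to 29 kb to 72.4% of those of 100 kb or longer. WT H3K9me3 covered 6.21% of the regions' length, and by the rule no region had 50% or more (against 8.8%). The KO list touched 731 (23.9%, against 16.8%) and covered at least 50% of 193 (6.32%, against 13.6%). Of those 193, 120 were on chromosome 5 and 8 on X, so that 65 (2.31% of 2811) were left on the other 18 autosomes. At the centre of the autosomal regions, chromosome 5 included, H3K9me3 covered 4.59% in WT and 7.66% in KO, and at 47.5 kb outside 16.6 and 22.7%. The rule limited the WT cover of the regions and not the KO cover. The order of the genotypes also turned with chromosome 5. Of the length of all regions the WT list covered 6.21% and the KO list 8.81%, and without chromosome 5 they covered 6.12 and 5.17%. The lists of total H3 covered 11.1% of the regions' length in WT and 24.0% in KO. PML regions of WT touched 5 of the 3054 regions (0.164%, against 0.992% of all WT H3.3-Flag regions). They lay on Fbxw17, Vwa5a and Ythdf3, each in full (3 regions with at least 50%, against 0.971% of all), on the chaperone gene Hspa4 (23.3% of the length) and on Rsad2 (2.90%). In KO 1 region was touched (against 0.0142%).

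RNA of the genes in the regions differed between KO and WT about as often as that of all genes. Genes at 1 FPKM or more in either genotype were compared, and a difference of at least 2-fold on the log2(FPKM + 1) scale, which understates changes of low genes, was counted. Higher in KO in the numbered pair were 183 of 2697 genes (6.79%, against 6.38% of all genes compared) and 392 lower (14.5%, against 15.7%). In the unnumbered pair 49 of 2704 were higher (1.81%, against 1.49%) and 83 lower (3.07%, against 3.72%). The median difference was 0.09 and 0.06 on the log2 scale, and 0.06 and 0.01 over all genes. These shares lie near those of all genes, but in the numbered pair not near those of other H3.3-Flag genes. Genes covered in the same way by other WT H3.3-Flag regions were higher in 3.67% and lower in 28.1% there (median -0.29). In the unnumbered pair these genes were higher in 1.51% and lower in 3.78%. The reason for the gap in the numbered pair was not tested. Without the interferon list, 146 of 2656 genes of the regions (5.50%) were higher and 392 lower (14.8%) in the numbered pair. In the unnumbered pair 49 of 2672 (1.83%) were higher and 72 lower (2.69%). The share higher in the numbered pair had to fall, as 37 of the 41 list genes compared were higher there. No share of all genes without the list is given. Of the 23 covered matrix genes 1 was higher and 11 lower in KO in the numbered pair (median difference -0.85), and 2 higher and 1 lower in the unnumbered pair (0.17). Of the 17 covered actin genes 3 were lower and none higher in the numbered pair (median -0.39), and 3 higher and none lower in the unnumbered pair (0.76).

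The 2 pairs seldom gave the same genes. Of 2649 genes of the regions compared in both, 6 were at least 2-fold higher in both and 12 lower in both, while 24 were higher in the numbered and lower in the unnumbered pair and 17 the reverse. Of all 10426 genes compared in both pairs, 0.240% were higher and 0.758% lower in both, against 0.227 and 0.453% in the regions, and 1.02% were on opposite sides, against 1.55%. The counts in the same direction were thus near or below the background. The numbered tables hold 3 replicates and the unnumbered ones 1 sample per genotype, and the pairs cannot be weighed by a spread. Higher in both were Inhba, a subunit of activin (34.7 and 96.8 FPKM, then 26.7 and 121), Has2, the hyaluronan synthase (17.6 and 47.4, then 12.6 and 39.2), the prostaglandin synthase gene Ptgs2 (34.5 and 94.5, then 63.3 and 132), Nrn1, Bcar3 and Syngr3. Lower in both were Ch25h, which makes 25-hydroxycholesterol (11.3 and 0.842, then 12.1 and 1.75), the inhibitor of differentiation gene Id1 (184 and 40.4, then 117 and 55.8) and the transcription factor genes Klf2 (40.9 and 18.1, then 43.3 and 18.9) and Egr2 (10.3 and 4.25, then 5.58 and 1.53). The other 8 were the immediate early gene Ier2, Serpinb9, Ppox, Sfn and the histone genes H4c11, H2bc3, H3c2 and H2ac11, whose near-identical copies can share reads. Ch25h and Klf2 had their whole body in WT H3K27me3 and none of it in KO H3K27me3, while Egr2 had 19.8% in WT and 84.6% in KO.

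The largest differences of a single pair were mostly not shared. In the numbered pair the interleukin receptor gene Il1rl1 had 0.876 FPKM in WT and 95.6 in KO, but in the unnumbered pair 29.3 and 15.7. The Wnt pathway gene Dkk3 had 0.288 and 35.6, then 95.9 and 130, and the retinoic acid binding protein gene Crabp2 0.233 and 9.86, then 31.8 and 49.7. Both were thus low in the numbered WT table alone. Sertad1 had 413 and 17.0, then 29.8 and 30.4 FPKM, and Rplp2, named above, 21961 and 1181, then 1284 and 1151, each high in the numbered WT table alone. In the unnumbered pair the early growth response gene Egr1 had 95.9 and 14.7 FPKM, and in the numbered pair 49.4 and 80.8. The plasminogen activator receptor gene Plaur had 11.0 and 47.0, and in the numbered pair 36.8 and 46.2.

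The interferon-induced genes stood on opposite sides in the 2 pairs. Of the 41 compared in the numbered pair 37 passed 2-fold as higher in KO and none as lower (median difference 1.80, all genes 0.06). All genes gave 6.38% higher and 15.7% lower there. Of the 32 compared in the unnumbered pair none was higher and 11 were lower (median -0.69, all genes 0.01). Here all genes gave 1.49% higher and 3.72% lower. Of the 32 genes compared in both pairs 27 had a difference above 0 in the numbered and below 0 in the unnumbered pair. No such count is given for all genes. At the stricter limit of 2-fold in each pair, 69 of all 10426 genes compared in both (0.662%) were higher in the numbered and lower in the unnumbered pair. In the regions 24 of 2649 (0.906%) were. As the list was put together with results known, the counts of its genes are a description. Cxcl10, a chemokine, had 0.299 (WT) and 31.7 FPKM (KO) in the numbered tables and 2.49 and 0.124 in the unnumbered ones. Ifit3 had 0.518 and 13.1, then 4.29 and 0.288. Ifit and Oas genes have near-identical neighbours that can share reads, so their single values are uncertain. As macrophage markers, Xist and Ddx3y also differed between the pairs, their part in these differences was not tested.

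**Figure D5:**
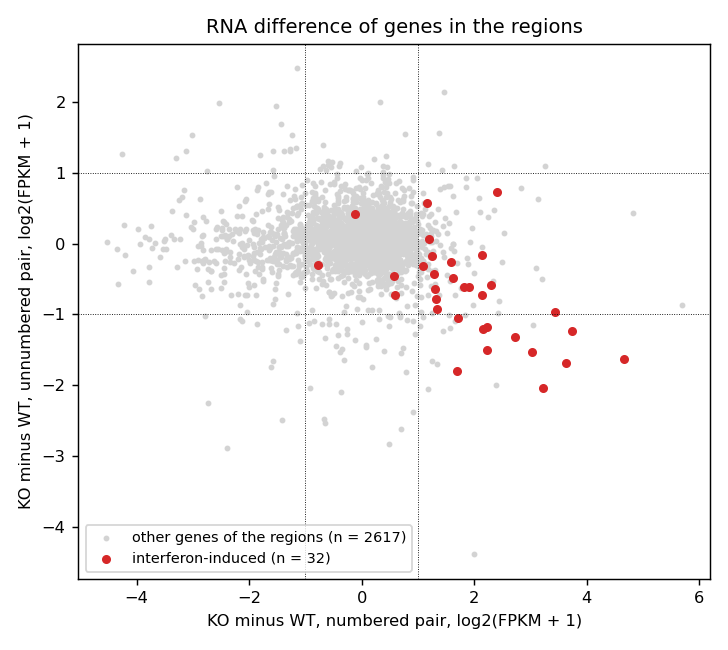
KO minus WT difference in log2(FPKM + 1) of the genes of the regions, numbered pair on the x axis and unnumbered pair on the y axis, with dotted lines at 2-fold; red points are the 32 interferon-induced genes and grey points the 2617 other genes compared in both pairs. Of the red points 27 lie right of 0 on the x axis and below 0 on the y axis. No such count is given for the grey points.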

How the data were processed

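Members and gene lists were chosen with earlier results of these data known. The ChIP files, per the labels, are region lists on mm10, and for H3.3, H3K9me3 and H3K27me3 the authors deposited a signal and a score per region, and for H3 and PML a score. RNA tables hold FPKM made by the authors. TopHat2 2.0.8b with Bowtie 1.0.0, and Cuffdiff 2.2.1 with Cufflinks 2.2.1, are named in the submitters' processing notes, and the region caller is not given in the sources used here. Read depth is unknown, so no detection limit can be given. Signal times length in kb was whole (within 0.01) for 99.9% of regions on chromosomes 1 to 9 and X and 30.2% on 10 to 19, so signal may not be on 1 scale.

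Cover was computed from merged lists with Python 3.11.15, numpy 2.4.6, pandas 2.3.3, scipy 1.17.1 and matplotlib 3.10.9. Code was tested on simulated data. Genes came from RefSeq on GRCm38.p6, the assembly of mm10, and 98.3% of table names matched. Lines naming several genes and repeated names were left out. A gene belonged to the regions when at least 50% of its body was covered. The KO minus WT difference of log2(FPKM + 1) was taken for genes at 1 FPKM or more in either genotype, and counted when at least 2-fold. With 1 list or table per group there was no test. Intervals are 95% Wilson. Named genes were those of the 10 longest regions, of the 10 of highest signal, of the 10 with most H3K27me3 or least H3.3-HA, those with the highest FPKM or largest differences, those low in both WT tables, and up to 6 a list. Exceptions are named as such. Results for a few genes are not reported here. Alternatives were other lengths, overlaps, pseudocounts, FPKM minimums, a signal minimum and subsets of chromosomes.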

Additional observations from a re-analysis of the deposited data

Results flagged for a closer look

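A total of 18 of the 205 genes looked at were at least 2-fold apart between KO and WT in opposite directions in the 2 pairs of RNA tables. These genes were named partly for their large differences and partly from lists chosen with results known, and all of them are genes of the broad shared regions. Over all 2649 genes of the regions compared in both pairs 41 did so (1.55%), and over all 10426 genes compared 106 (1.02%). The difference between the pairs was not tested, since each pair has 1 value per genotype. Values are KO minus WT on the log2(FPKM + 1) scale, with the numbered pair first. Among interferon-induced genes the values were 4.65 and -1.63 for Cxcl10, 3.74 and -1.23 for Usp18, 3.64 and -1.68 for Ifit1, 3.22 and -2.04 for Ifit3, and 3.02 and -1.53 for Isg15. They were 2.73 and -1.32 for Irf7, 2.23 and -1.18 for Igtp, 2.22 and -1.51 for Bst2, 2.16 and -1.21 for Ifit3b, and 1.69 and -1.80 for Psmb8. Pdpn, the gene of the surface protein podoplanin, had 1.99 and -4.39.

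The other 7 genes were lower in KO in the numbered and higher in the unnumbered pair. The values were -1.15 and 2.48 for Anxa8, -1.28 and 1.31 for the matricellular gene Ccn2, and -1.43 and 1.69 for Pdlim1. They were -2.53 and 2.00 for Tnfrsf11b, the gene of osteoprotegerin, -3.02 and 1.54 for Foxs1, -3.12 and 1.31 for S100a4, and -4.26 and 1.26 for Cavin2.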

How the results depend on the processing

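Of the recomputed values 58 stayed within their interval, or for counts within 1.5 times, and 31 moved. A minimum length of 30 kb left 1981 regions, no WT H3K9me3 base 1990, and chromosomes 10 to 19 alone 1352. At 30 kb WT H3.3-HA covered at least 50% of 23.0% of regions. KO H3.3-HA did so in 45.8% on chromosomes 10 to 19 and in 8.32% at a signal of at least 3. The share touched by WT H3K27me3 was 23.7% from 15 kb, 28.3% from 30 kb and 23.0% with no H3K9me3 base. For KO H3K27me3 these were 15.5, 19 and 15.1%, with 14.5% on chromosomes 10 to 19, 15.5% without X and 15.1% at a signal of at least 3. For KO H3K9me3 they were 21.5, 28.2 and 12.7%, with 21.9% on chromosomes 10 to 19 and 19.6% without chromosome 5. The exclusions of X and of chromosome 5 were chosen after seeing the data. With any overlap in place of 50% of the gene, 85.2 and 87.9% of genes were at 1 FPKM or more, and the medians were 12.6 and 14.7 FPKM. With the start site inside a region they were 14.5 and 17.3, and from 30 kb 15.7 in the numbered table. On chromosomes 10 to 19 the counts of genes higher and lower were 72 and 186 in the numbered and 24 and 36 in the unnumbered pair, as fewer genes were compared. For other moves the cause was not tested.

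No paired analysis was possible because the 3 numbered RNA replicates of each genotype are in 1 column, and for the same reason no replicate was left out. Depth is unknown, and each ChIP target has 1 list per genotype, so a difference between genotypes cannot be told apart from one between libraries. KO H3.3-HA is mostly of low signal, and its order against WT turns with the signal minimum.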
